A study of Mus musculus with 12 samples.

Results

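The TNF superfamily comprises ligands, most of them trimeric membrane proteins that can be shed, and the receptors that bind them. The rule took every gene of the count table whose symbol begins with Tnfsf or Tnfrsf followed by a digit, together with Tnf, Lta, Ltb, Ltbr, Cd27, Cd40, Cd40lg, Cd70, Fas, Fasl, Ngfr and Eda2r, and used no measured value. It found 44 of 39666 genes, namely 17 ligands, 26 receptors and Tnfsf13os, an RNA transcribed opposite to Tnfsf13 that belongs to the list by its symbol alone. RNA came from eosinophils of the airways of wild-type C57BL/6 mice, 8 to 12 weeks old, with an allergic reaction to ovalbumin. The animals received 20 µg of the antigen with 4 mg alum on days 0 and 7, inhaled it as a nebulized 1% solution for 40 minutes on each of days 16 to 18, and were harvested on day 19. All groups shared this treatment, and no untreated animals were part of the comparison. Lavage fluid of several animals was pooled, and flow cytometry separated the eosinophils of each pool by their TREM-1 staining. The 6 lavages thus gave 6 TREM-1- libraries and, from the same fluid, 6 TREM-1+ partners. The sort gate required Siglec-F, CD45 and CD11b and admitted CD11c and Ly6G up to middle levels. TREM-1 is an activating receptor of myeloid cells encoded by Trem1.

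In this family, receptors with a cytoplasmic death domain, such as TNFR1, FAS and the TRAIL receptor DR5, can start caspase-dependent cell death. Many of the others, decoy receptors aside, recruit TRAF adaptors and can turn on NF-kB and MAP kinases, as TNFR1 can too. TNF is shared by TNFR1 and TNFR2. LIGHT, the product of Tnfsf14, binds HVEM and the lymphotoxin beta receptor, and the latter also binds heterotrimers of lymphotoxin alpha and beta. Eosinophils are a known source of TNF, and LIGHT has been studied in mouse models of asthma for its part in airway remodelling.

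To give the genes on which the results turn a sequence context, the 250 bases before the annotated start of Tnf, Ltb, Tnfsf14, Tnfrsf14 and Ltbr are shown, which are TNF, the chain lymphotoxin beta, LIGHT and the 2 receptors of LIGHT. They were taken from RefSeq, build GRCm38.p6, and run 5′ to 3′ on the strand of the gene. Capitals mark matches, on either strand, to the kappa-B consensus, to the core of the interferon-stimulated response element (ISRE; TTTC, any 2 bases, TTTC) or to TGANTCA (an AP-1 site).
Tnf (chr17:35202008-35202257, minus strand): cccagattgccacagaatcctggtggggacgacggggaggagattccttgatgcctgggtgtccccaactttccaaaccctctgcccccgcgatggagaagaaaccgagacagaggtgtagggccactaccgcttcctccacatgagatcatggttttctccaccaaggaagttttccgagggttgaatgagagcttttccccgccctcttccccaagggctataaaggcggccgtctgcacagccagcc
Ltb (chr17:35194257-35194506, plus strand): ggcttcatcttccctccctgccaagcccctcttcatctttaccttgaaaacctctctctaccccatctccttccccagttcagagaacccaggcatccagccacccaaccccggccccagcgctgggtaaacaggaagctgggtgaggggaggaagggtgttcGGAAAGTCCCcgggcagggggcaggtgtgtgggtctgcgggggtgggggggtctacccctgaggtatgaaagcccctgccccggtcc
Tnfsf14 (chr17:57194182-57194431, minus strand): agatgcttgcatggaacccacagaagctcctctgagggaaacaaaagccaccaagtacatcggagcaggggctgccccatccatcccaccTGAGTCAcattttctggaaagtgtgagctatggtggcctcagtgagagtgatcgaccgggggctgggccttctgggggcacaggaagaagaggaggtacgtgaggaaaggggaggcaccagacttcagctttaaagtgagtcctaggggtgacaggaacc
Tnfrsf14 (chr4:154928078-154928327, minus strand): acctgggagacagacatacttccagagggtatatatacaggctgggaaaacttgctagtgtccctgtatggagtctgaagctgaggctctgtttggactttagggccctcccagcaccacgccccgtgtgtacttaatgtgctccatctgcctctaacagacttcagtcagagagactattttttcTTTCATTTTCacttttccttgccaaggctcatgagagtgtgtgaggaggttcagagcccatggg
Ltbr (chr6:125313886-125314135, minus strand): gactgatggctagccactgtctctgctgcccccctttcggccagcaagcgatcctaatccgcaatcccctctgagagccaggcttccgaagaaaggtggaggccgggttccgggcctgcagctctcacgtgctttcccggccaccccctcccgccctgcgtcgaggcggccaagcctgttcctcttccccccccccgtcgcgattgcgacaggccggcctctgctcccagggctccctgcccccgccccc
No marked matches overlapped in these windows. The Ltb window held a kappa-B match that began 87 bases before the start, the Tnfsf14 window an AP-1 match at 160 bases and the Tnfrsf14 window an ISRE core match at 64 bases. None of the 3 patterns was found in the windows of Tnf and Ltbr, which says only that these letters are not there. Of the 44 members, 33 had at least 1 window in the table, and a window with the kappa-B consensus was found for 3 of them, with the ISRE core for 4 and with TGANTCA for 6. Over all 32851 windows of the same length, 3.9% held the kappa-B consensus, 2.98% the ISRE core and 6.75% TGANTCA. These shares are per window, whereas the members were counted per gene, and the 33 members had 37 windows. Among the other genes described below, Fas had an AP-1 match at 211 bases and Tnfrsf1b an ISRE core match at 10 bases. Tnfrsf8 and Tnfrsf9 had kappa-B and AP-1 matches, and Tnfsf13b had ISRE core and AP-1 matches. Tnfsf13 had an AP-1 match and Tnfrsf17 an ISRE core match. Such matches describe the sequence and are not evidence of binding.

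Total counts per library ran from 8626701, in the TREM-1+ library of lavage 4, to 21234053. Trem1, the sorted gene, had 30.7 ± 8.12 CPM (a gene's counts scaled to library size and composition) in TREM-1- and 93.1 ± 20.0 CPM among TREM-1+ libraries (SD, n = 6), higher in 6 of 6 pairs, which checks the sort and is no finding. Eosinophil markers were high, with sums over 11 genes of 4462 to 6883 CPM in the TREM-1- fraction and 4335 to 6574 CPM in TREM-1+. Of the 11, 6 were called lower and 3 higher, namely Prg2 (log2 difference 0.34), Alox15 (0.19) and Ear6 (0.14). Ear1, called lower, had the largest difference at -1.50. Siglecf, part of the sort gate, averaged 875 CPM in TREM-1- libraries and differed by -0.14 on the log2 scale, and Ccr3, the eotaxin receptor, averaged 985 CPM and differed by -0.27, each lower in 6 of 6 pairs. Markers of T cells and innate lymphoid cells summed to 10.3 to 77.0 CPM among TREM-1- and 13.6 to 149.9 CPM among TREM-1+ libraries over the 12 genes found of 14 listed, were higher in the TREM-1+ library of 6 of 6 pairs, and 8 of the 12 passed the test as higher. Of 10 neutrophil markers 7 were called higher and 1 lower, with a sum of 1545 to 2297 CPM among TREM-1- and 1332 to 2225 CPM among TREM-1+ libraries. The sum is carried by Retnlg, the 1 gene called lower (1603 to 1244 CPM on average). The 7 higher genes were each higher in 6 of 6 pairs, among them the alarmin genes S100a8 (1.70 to 8.72 CPM) and S100a9 (37.3 to 97.5 CPM), the granule protein genes Ngp (25.4 to 46.8 CPM) and Ltf (9.06 to 17.1 CPM), and Ly6g (3.37 to 5.89 CPM). Camp and Mmp8 stayed below 1 CPM in all libraries. Of 13 macrophage and monocyte markers 3 were called higher and 1 lower, with sums of 902 to 1419 and 695 to 1479 CPM, of which Ly6c2 and Chil3 held much. Fn1 (25.9 to 69.3 CPM), Pparg (4.16 to 7.89 CPM) and Ccr2 (5.89 to 8.44 CPM) were the higher genes and Ly6c2 the lower one. Mrc1 (5.75 to 12.2 CPM) and Chil3 (151 to 305 CPM) were higher in 6 of 6 pairs without passing the test. C1qa, C1qc and Marco stayed below 1 CPM in all libraries, and C1qb reached 3.39 CPM. Of 5 NK cell, 6 dendritic cell and 6 mast cell and basophil markers only Kit was called, as higher (log2 difference 0.30). Their sums were higher in the TREM-1+ library of 6, 6 and 5 of 6 pairs, and that of 6 epithelial markers in 2. The part of these cells in the results below was not tested. Libraries of lavages 1 and 2 differ in several members from those of lavages 3 to 6, and for called genes of the family these subsets are given where they end the call. Whether lavages 1 and 2 are independent pools is not stated, and counting them as 1 pair, with their counts summed, ended the call of Ltb among the 9 called members.

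Of the 44 members, 26 (7 ligands and 19 receptors) passed the filter on low counts. Compared per length, as CPM per kb of the longest coding transcript in GENCODE vM21 and averaged over the 12 libraries, the receptor gene Tnfrsf14, which encodes HVEM, had the highest level at 98.0. Its ligand gene Tnfsf14 followed at 55.3 and Ltb at 54.0, which do not differ beyond their spread. Next came Tnfrsf1a for TNFR1 (36.7 CPM per kb), Tnfrsf1b for TNFR2 (28.9), Tnfrsf21 for the death domain receptor DR6 (25.0) and Fas (22.3). A middle group from 16.4 down to 6.29 CPM per kb held Tnfrsf18, Tnfrsf26, Tnfrsf13b, Ltbr, Tnf and Tnfrsf12a. Ligand genes other than Ltb and Tnfsf14 lay below most of these receptors, with Tnf at 6.89 and Tnfsf10, which encodes TRAIL, at 4.11 CPM per kb. The transcript in use in these cells may be shorter or longer than the one taken, which scales a gene's level but not its difference between fractions.

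**Figure D1:**
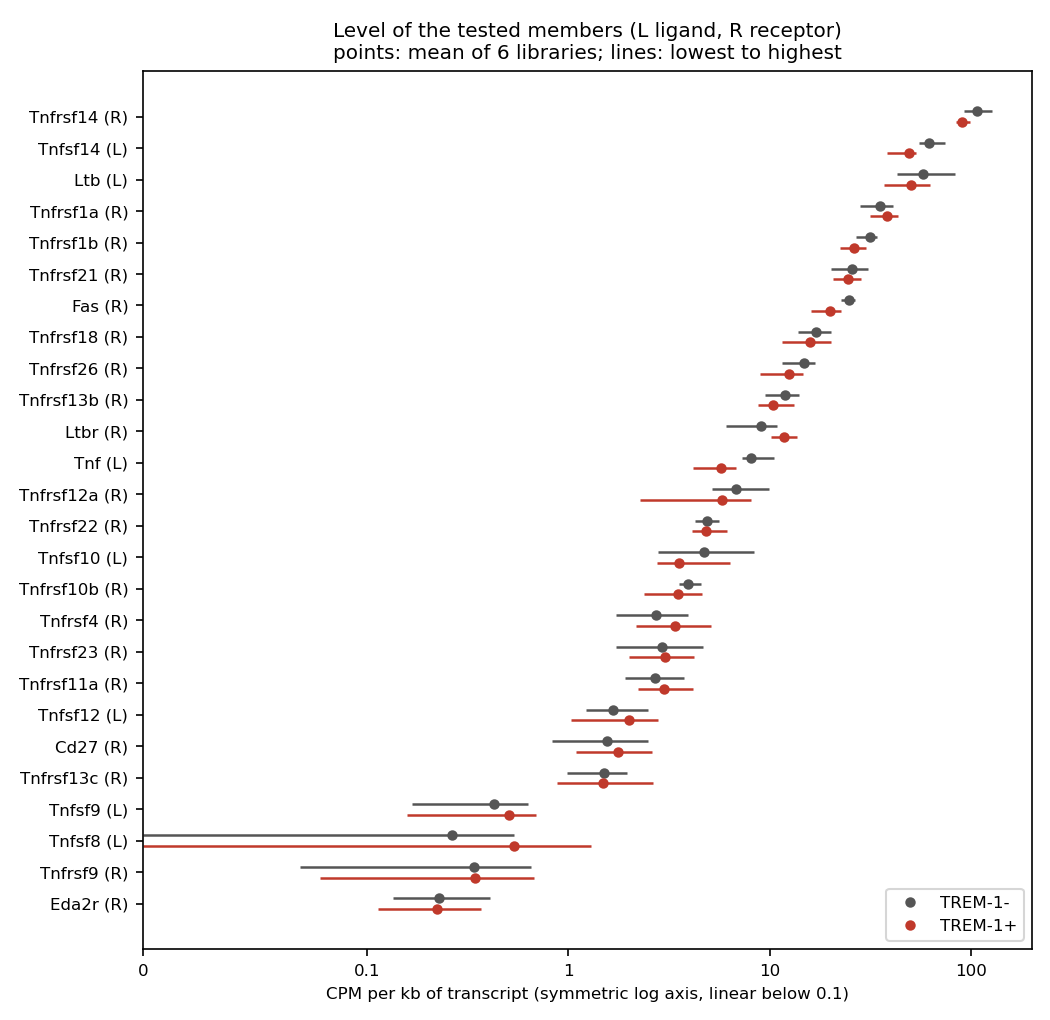
Level of the 26 tested members in CPM per kb of transcript (symmetric log axis, linear below 0.1), as mean (point) and range (line) of 6 libraries in each fraction. Tnfrsf14 leads at a mean of 98.0, ahead of Tnfsf14 and Ltb, and the ranges of the fractions overlap for every member but Tnf and Tnfsf14.

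Between the fractions, 9 of the 26 tested members passed the test (edgeR quasi-likelihood, Benjamini-Hochberg adjusted p below 0.05 over all 18302 genes tested), 8 lower and 1 higher in TREM-1+ eosinophils. Over all genes tested the test called 9.82%, 6.72% as lower and 3.1% as higher. All 9 called members had a mean of at least 5 CPM, as had 17 members in all, and among all genes of that level 15.3% were called, 10.9% as lower and 4.45% as higher. The lower genes were the ligand genes Tnf, Tnfsf14, Ltb and Tnfsf10 and the receptor genes Tnfrsf1b, Tnfrsf14, Fas and Tnfrsf26. Ltbr was the 1 called higher. The changes were small, from 0.705-fold in Tnf to 1.3-fold in Ltbr. Log2 fold changes are given as TREM-1+ over TREM-1-, and their median was -0.06 over the 26 and 0.004 over all genes tested. In 7 members the TREM-1+ library was lower in 6 of 6 pairs and in 1 member higher, and among all tested genes these patterns held for 8.31% and 5.08%. The groups did not overlap in 2 members, both lower, against 0.656% of all genes lower and 0.295% higher. In bulk RNA, fewer cells that express a gene and less RNA per cell cannot be told apart.

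The size of most differences depended on the scaling. With library totals in place of the composition factors the log2 fold change of the median gene moved to 0.13. Then 2 members (Tnf and Tnfsf14) were called lower and 2 (Ltbr and Tnfrsf1a) higher, against 8 and 1 before, and of all genes 12.3% were called, 2.05% as lower and 10.3% as higher. All 9 called members kept their direction under that scaling. Without the lavage as a block 0 members and 0.454% of all genes were called by edgeR. At an unadjusted p below 0.05 in that fit were 6 of the 26 members and 1304 of the 18302 genes tested. In lavages 3 to 6 alone 5 members were called (6.26% of all genes), and in lavages 1 and 2 alone also 5 (8.45%).

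**Figure D2:**
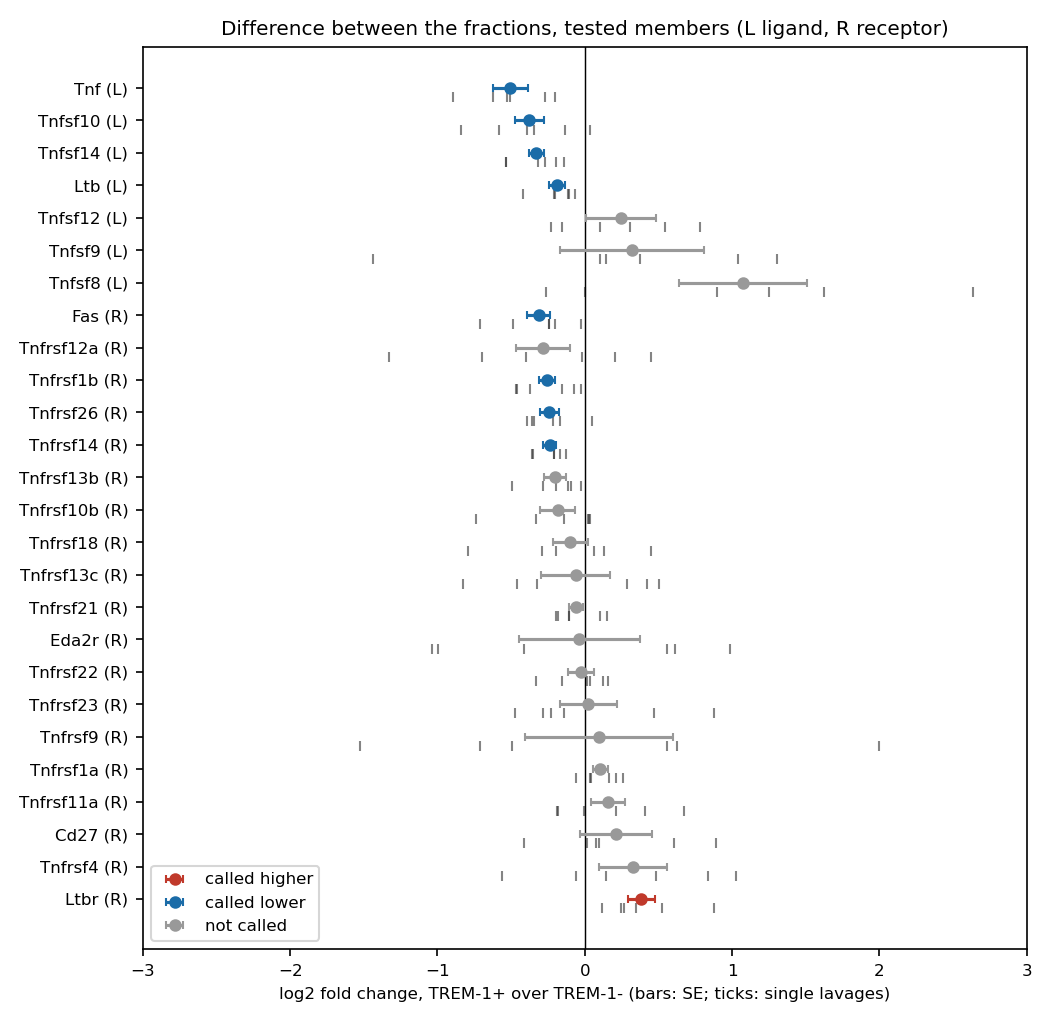
Log2 fold change of TREM-1+ over TREM-1- for the 26 tested members, as point with SE from edgeR, with ticks for the 6 single lavages. The 4 ligand genes called lower and the 4 receptor genes called lower lie left of 0 and Ltbr right of it, and the widest tick ranges belong to genes near 1 CPM.

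Among the ligands of TNF and lymphotoxin type, Tnf (NCBI gene 21926), which encodes the cytokine TNF, had a lowest, median and highest level of 11.9, 12.5 and 17.1 CPM in TREM-1- libraries and of 6.82, 9.62 and 11.1 CPM among TREM-1+ libraries. Every TREM-1+ library lay below every TREM-1- library, a separation seen also in Tnfsf14 and in no other member called by edgeR. The mean fell from 13.2 ± 1.98 to 9.36 ± 1.55 CPM (SD, n = 6), a log2 fold change of -0.50 ± 0.12 (SE; edgeR test, adjusted p = 0.00342). The paired difference was largest in lavage 2 at -0.90 and smallest in lavage 5 at -0.20. In lavages 3 to 6 alone the call was lost (-0.40, edgeR adjusted p = 0.141), and lavages 1 and 2 alone gave -0.69.

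Tnfsf14 (50930), the gene for LIGHT, had 102, 109.7 and 136 CPM as lowest, median and highest level in TREM-1- libraries and 70.3, 93.9 and 98.7 CPM among TREM-1+ libraries. Here too the groups did not overlap, and the TREM-1+ library of lavage 4 stood lowest. Tnfsf14 differed by a log2 fold change of -0.33 ± 0.05 (SE; edgeR test, adjusted p = 1.28e-05), lower in 6 of 6 pairs. It kept its call in lavages 3 to 6 alone (-0.28) and in lavages 1 and 2 alone (-0.40).

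Ltb (16994), which encodes lymphotoxin beta, had 49.4, 60.5 and 96.3 CPM among TREM-1- and 42.7, 56.1 and 72.1 CPM among TREM-1+ libraries (lowest, median and highest). These groups overlapped, since lavages 1 and 2 were highest in both fractions and lavage 4 lowest. Lavage held 86.4% of the variance of its log2 CPM and the fraction 9.86%. Within pairs Ltb was lower in 6 of 6, with a log2 fold change of -0.19 ± 0.05 (SE; edgeR test, adjusted p = 0.0197). The call was lost without lavage 1 (adjusted p = 0.0784), lavage 2 (0.164) or lavage 4 (0.055) and in lavages 3 to 6 alone (0.419), and also with lavages 1 and 2 summed (-0.17, adjusted p = 0.0834). Its partner chain gene Lta had 34 counts over all 12 libraries and did not pass the filter. Ltb, Tnf and Lta neighbour each other, with 0 other coding genes between them in the RefSeq order of GRCm38.p6, and Tnfsf9, Cd70 and Tnfsf14 form another such row. Of the first row Tnf and Ltb were called lower, and of the second Tnfsf14, while Tnfsf9, the gene for the ligand of 4-1BB, was at 0.55 ± 0.255 and 0.658 ± 0.263 CPM (edgeR adjusted p = 0.809).

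Of the death ligands, Tnfsf10 (22035), which encodes TRAIL, had 13.9, 21.4 and 41.5 CPM among TREM-1- and 13.7, 15.1 and 31.5 CPM among TREM-1+ libraries (lowest, median and highest). Lavage 6 was the highest in each fraction, and the ranges overlapped almost fully. The TREM-1+ library was lower in 5 of 6 pairs, the exception being lavage 5, where the difference was 0.04. Tnfsf10 differed by a log2 fold change of -0.38 ± 0.10 (SE; edgeR test, adjusted p = 0.00951). It was not called without lavage 4 (-0.29, adjusted p = 0.0823), without lavage 6 (-0.37, adjusted p = 0.0556) or in lavages 1 and 2 alone (-0.23, adjusted p = 0.378), nor without lavages 3 and 4 (-0.22, adjusted p = 0.227). Tnfsf12, the gene for TWEAK, had 2.39 ± 0.658 CPM among TREM-1- and 2.87 ± 0.915 CPM among TREM-1+ libraries (SD, n = 6, edgeR adjusted p = 0.657). Fasl, which encodes the ligand of FAS, reached 22 counts at most and did not pass the filter.

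**Figure D3:**
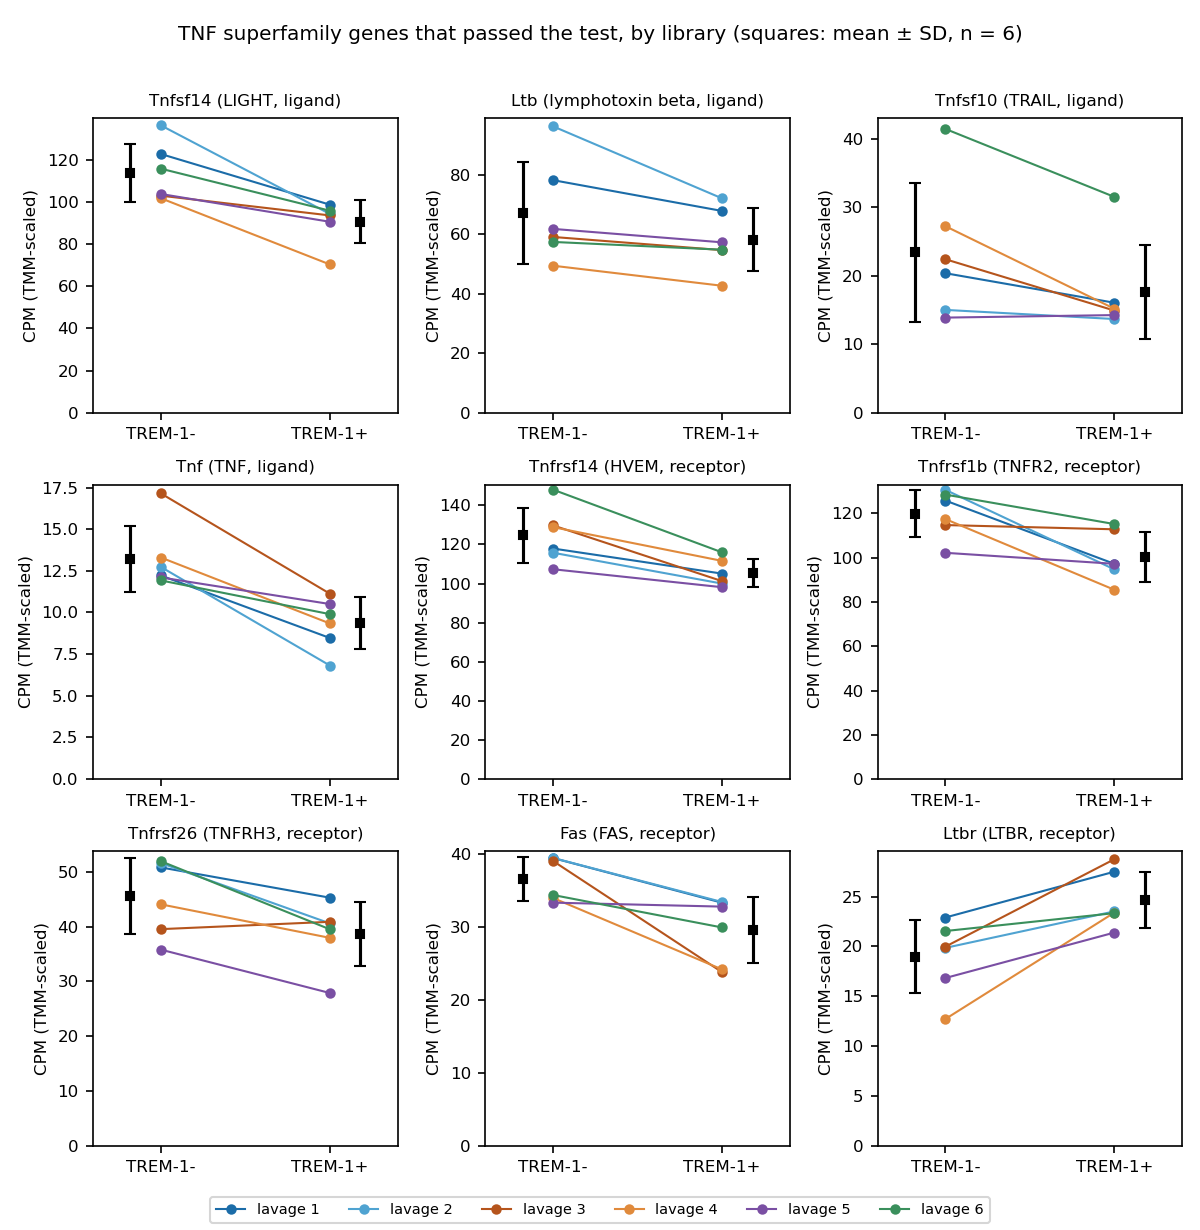
CPM of the 9 members that passed the test, one panel each, with lines joining the TREM-1- and TREM-1+ library of a lavage and squares for the mean ± SD of 6 libraries. Lines fall in 6 of 6 lavages in Tnf, Tnfsf14, Ltb, Tnfrsf14, Tnfrsf1b and Fas, in 5 of 6 in Tnfsf10 and Tnfrsf26, and rise in 6 of 6 in Ltbr.

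Among the receptors of TNF, LIGHT and lymphotoxin, Tnfrsf1b (21938), which encodes TNFR2, had 102, 122 and 131 CPM among TREM-1- and 85.5, 97.2 and 115 CPM among TREM-1+ libraries (lowest, median and highest). The TREM-1+ libraries of lavages 3 and 6 lay above the lowest TREM-1- library, that of lavage 5, but within pairs the gene was lower in 6 of 6. It differed by a log2 fold change of -0.26 ± 0.05 (SE; edgeR test, adjusted p = 0.0022), with -0.40 in lavages 1 and 2 alone and -0.18 (adjusted p = 0.098) in lavages 3 to 6 alone. Tnfrsf1a (21937), the gene for TNFR1, had 76.2 ± 11.2 CPM among TREM-1- and 81.9 ± 9.56 CPM among TREM-1+ libraries (SD, n = 6). At a log2 fold change of 0.11 ± 0.05 it did not pass the test (edgeR adjusted p = 0.219), although it did with library totals (0.23, adjusted p = 0.00866). The ratio of Tnfrsf1b to Tnfrsf1a within a library does not depend on the scaling. Its log2 value averaged 0.66 in TREM-1- and 0.30 in TREM-1+ libraries and was lower in 6 of 6 pairs, by -0.20 to -0.67.

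Tnfrsf14 (230979), which encodes HVEM, had 107, 123 and 148 CPM among TREM-1- and 98.1, 103 and 116 CPM among TREM-1+ libraries (lowest, median and highest). The TREM-1+ library was lower in each pair, and lavage 6 was highest in both fractions. Tnfrsf14 differed by a log2 fold change of -0.24 ± 0.04 (SE; edgeR test, adjusted p = 0.000119), and the call was lost in lavages 1 and 2 alone (-0.17, adjusted p = 0.0519).

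Ltbr (17000), which encodes the lymphotoxin beta receptor, had 12.7, 19.9 and 22.9 CPM among TREM-1- and 21.4, 23.5 and 28.8 CPM among TREM-1+ libraries (lowest, median and highest). All 6 TREM-1+ libraries exceeded their partners, by log2 differences of 0.12 in lavage 6 to 0.88 in lavage 4, while the groups overlapped. The mean rose from 19.0 ± 3.68 to 24.7 ± 2.84 CPM (SD, n = 6), a log2 fold change of 0.38 ± 0.09 (SE; edgeR test, adjusted p = 0.00453). Without lavages 3 and 4 it was 0.24 (adjusted p = 0.129), in lavages 1 and 2 alone 0.27 (adjusted p = 0.118) and in lavages 3 to 6 alone 0.45. Ltbr was called in the opposite direction to Tnfsf14, the gene for LIGHT, and to Ltb. Ltb encodes only a chain of the other ligand, and Lta, the gene for the partner chain, had 34 counts in all. The call of Ltb was lost under 7 of 17 alternatives and that of Ltbr under 3. Within a library, the log2 ratio of Tnfsf14 to Ltbr averaged 2.60 in TREM-1- and 1.87 in TREM-1+ libraries, and that of Ltb to Ltbr 1.81 and 1.23. Each ratio was lower in 6 of 6 pairs. For Tnf over Tnfrsf1a the averages were -2.52 and -3.13, also lower in 6 of 6, whereas Tnfsf14 over Tnfrsf14 was lower in 4 of 6. These ratios were chosen with the values known and carry no test.

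Of the death domain receptors, Fas (14102), the receptor of Fas ligand, had 33.3, 36.6 and 39.4 CPM among TREM-1- and 23.7, 31.3 and 33.4 CPM among TREM-1+ libraries (lowest, median and highest). The groups overlapped narrowly, at the top of TREM-1+ and the bottom of TREM-1-, and the TREM-1+ libraries of lavages 3 and 4 were the lowest. Within pairs Fas was lower in 6 of 6, from -0.02 in lavage 5 to -0.71 in lavage 3, with a log2 fold change of -0.31 ± 0.08 (SE; edgeR test, adjusted p = 0.0065). The call of Fas did not hold in lavages 1 and 2 alone (-0.22, adjusted p = 0.121), nor without lavages 3 and 4 (-0.18, adjusted p = 0.202). The other 2 tested death domain receptors besides Tnfrsf1a did not pass. Tnfrsf21, for DR6, had 92.4 ± 13.5 and 88.6 ± 11.1 CPM (SD, n = 6, edgeR adjusted p = 0.59) and a log2 fold change whose sign changed with library totals. Tnfrsf10b, for the TRAIL receptor DR5, had 12.5 ± 1.04 and 11.2 ± 2.46 CPM (edgeR adjusted p = 0.44). Tnfrsf25, for DR3, and Ngfr, for the neurotrophin receptor p75, did not pass the filter.

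The decoy and related receptor genes Tnfrsf22, Tnfrsf23 and Tnfrsf26 neighbour each other in the RefSeq order. The first pair encodes decoy receptors of TRAIL in the mouse. Reads of these close relatives could be divided wrongly between them, so their values are uncertain. Tnfrsf26 (244237) had 35.8, 47.5 and 52.0 CPM among TREM-1- and 27.9, 40.1 and 45.3 CPM among TREM-1+ libraries (lowest, median and highest), lower in 5 of 6 pairs with lavage 3 as the exception. Its log2 fold change was -0.24 ± 0.07 (SE; edgeR test, adjusted p = 0.0143), and the call was lost without lavage 2 (0.0717), lavage 5 (0.0624) or lavage 6 (0.103) and in lavages 3 to 6 alone (0.139). Tnfrsf22 stood at 20.4 ± 2.05 and 20.1 ± 3.0 CPM (edgeR adjusted p = 0.934) and Tnfrsf23 at 4.33 ± 1.45 and 4.44 ± 1.44 CPM (0.968). Tnfrsf11b, which encodes the secreted decoy osteoprotegerin, had 0 counts in all libraries, which allows up to 0.0147 CPM over the 12 libraries together (3 counts, counting error only).

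Tnfrsf13b (57916), which encodes TACI, was the leading gene among the receptors of BAFF and APRIL, with 24.1, 31.1 and 35.9 CPM among TREM-1- and 22.3, 24.9 and 33.6 CPM among TREM-1+ libraries (lowest, median and highest). Its TREM-1+ library was lower in 6 of 6 pairs, but the log2 fold change of -0.20 ± 0.08 did not pass the test (SE; edgeR test, adjusted p = 0.104). Tnfrsf13c, for the BAFF receptor, had 2.97 ± 0.744 and 2.95 ± 1.25 CPM (edgeR adjusted p = 0.935). Tnfrsf17, for BCMA, had 125 counts in all and did not pass the filter. The ligand genes were nearly silent, with 84 counts of Tnfsf13 (APRIL) and 45 counts of Tnfsf13b (BAFF) over 12 libraries. Of the B cell markers, Ms4a1 was also low, at a mean of 0.27 CPM in TREM-1- libraries, while Cd79a had 10.8 CPM. Tnfsf13 and Tnfsf12 neighbour each other, and Tnfsf13os runs opposite to Tnfsf13 with 13 counts. The library kit keeps strand, but the sources used here do not say whether counting used it, so those reads may not be separated.

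None of the 7 tested costimulatory ligand and receptor genes was called by edgeR, with 1 of them, Tnfsf8, at an unadjusted p below 0.05, and 0 passed with DESeq2 or limma-voom. Tnfrsf18, which encodes GITR, was the most abundant at 20.1 ± 3.06 CPM among TREM-1- and 18.9 ± 4.16 CPM among TREM-1+ libraries (SD, n = 6, edgeR adjusted p = 0.745). The single lavages went apart, from -0.79 in lavage 3 to 0.45 in lavage 6. Tnfrsf11a, for RANK, had 13.6 ± 3.64 and 15.01 ± 3.41 CPM (edgeR adjusted p = 0.524). Tnfrsf4 for OX40 (2.79 ± 0.814 and 3.49 ± 1.07 CPM), Cd27 (2.42 ± 1.03 and 2.75 ± 0.985 CPM) and Tnfrsf9 for 4-1BB (0.722 ± 0.486 and 0.726 ± 0.443 CPM) also did not pass. Of the other receptors, Tnfrsf12a for the TWEAK receptor FN14 had 6.67 ± 1.68 and 5.71 ± 2.14 CPM (edgeR adjusted p = 0.452), and Eda2r stayed near 1 CPM (1.08 ± 0.462 and 1.06 ± 0.453 CPM). Tnfsf8, which encodes the ligand of CD30, had the largest log2 fold change of the tested members at 1.07 ± 0.43, yet did not pass (SE; edgeR test, adjusted p = 0.136), with 0 to 2.04 CPM among TREM-1- and 0 to 4.93 CPM among TREM-1+ libraries.

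The 18 members that did not pass the filter held at most 125 counts over the 12 libraries. Cd70 and Tnfrsf11b had 0 counts, and Lta, Tnfsf15, Fasl, Tnfsf13, Tnfsf13b, Tnfsf4, Tnfsf18, Cd40lg, Tnfsf11, Tnfrsf25, Ngfr, Tnfrsf8, Cd40, Tnfrsf17, Tnfrsf19 and Tnfsf13os had between 6 and 125. Cd40, the costimulatory receptor of antigen-presenting cells, had 20 counts in all and its ligand gene Cd40lg 62. The 4 ligand genes Fasl, Lta, Tnfsf8 and Cd40lg, which activated lymphocytes also express, were grouped after their values were seen and are given as a description. Together they had 0 counts in the TREM-1- libraries of lavages 1 and 2 and 15 and 3 counts in the TREM-1+ partners, against 18 to 61 and 39 to 81 counts in lavages 3 to 6. The sum of T cell and innate lymphoid cell markers lay at 10.3 to 14.99 CPM in the 4 libraries of lavages 1 and 2 and at 39.3 to 149.9 CPM in the other 8. This split was not particular to those markers. The sum of 5 NK cell markers was 0.156 to 1.29 CPM in lavages 1 and 2 and 5.99 to 21.5 CPM in the others. Chil3 had 2.86 to 32.3 against 79.5 to 573 CPM, and Fn1 1.30 to 5.65 against 11.0 to 155 CPM. Eosinophil marker sums went the other way, at 6490 to 6883 against 4335 to 5874 CPM. The part of any of these cells in the 4 ligand genes was not tested.

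**Figure D4:**
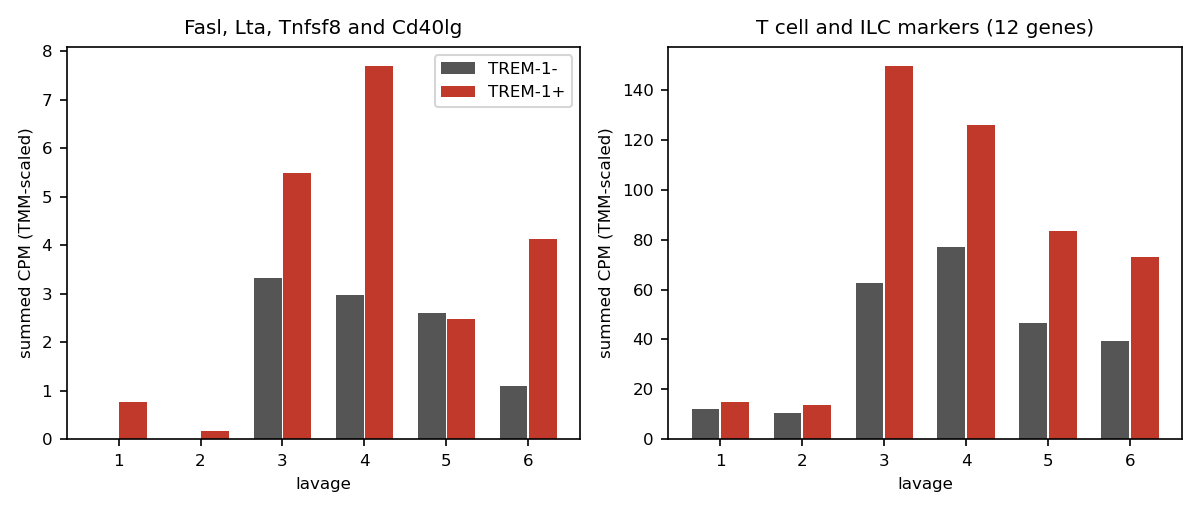
Summed CPM of Fasl, Lta, Tnfsf8 and Cd40lg (left) and of 12 T cell and innate lymphoid cell markers (right) in each of the 12 libraries, by lavage and fraction. The sums on the left stay below 1 CPM in lavages 1 and 2, where the marker sums are 14.99 CPM or less, and reach 7.70 CPM in the TREM-1+ library of lavage 4.

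For signalling downstream of the receptors, a list of 52 genes for adaptors, kinases, ubiquitin enzymes, death effectors and sheddases was set beside the family, and all 52 passed the filter. Of these, 11 were called lower and 2 higher by edgeR, with a median log2 fold change of -0.04. Over all genes tested 9.82% were called, 6.72% as lower and 3.1% as higher. Among all genes with a mean of at least 5 CPM these shares were 15.3%, 10.9% and 4.45%. All of the 52 but Traf1, Ripk3, Map3k8 and Traf3ip2 had that level. With library totals alone the same list gave 8 higher and 0 lower, against 10.3% and 2.05% of all genes. The split thus depends on the scaling, in this list as over all genes. The convertase gene Furin, whose product cleaves the precursors of APRIL and BAFF, fell from 1058 ± 125 to 901 ± 97.7 CPM (SD, n = 6), a log2 fold change of -0.23 ± 0.03 (SE; edgeR test, adjusted p = 1.77e-06). Litaf, named as a factor that induces Tnf after lipopolysaccharide, fell by 0.25 on the log2 scale, Casp8, the caspase engaged by death receptors, fell by 0.28 and Cyld, a deubiquitinase that restrains NF-kB, fell by 0.20. Tnfaip8 (-0.23 ± 0.05) and Ikbkb (-0.19 ± 0.04), which encodes an NF-kB activating kinase, completed the 6 lower genes of smallest p. None of these 6 was called with library totals alone, nor was Tnfaip8 in lavages 1 and 2 alone (-0.17, edgeR adjusted p = 0.101) or Ikbkb in lavages 3 to 6 alone (-0.16, adjusted p = 0.088). The others called lower, named beyond the rule, were Bid, a substrate of caspase-8, Sppl2a, Adam10, Cflar, which encodes the caspase-8 inhibitor c-FLIP, and Rhbdf2, which encodes a cofactor of the TNF sheddase ADAM17.

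Tnfaip2, a gene first found as induced by TNF, rose from 59.0 ± 13.1 to 80.3 ± 13.9 CPM (SD, n = 6), higher in 6 of 6 pairs with a log2 fold change of 0.45 ± 0.06 (SE; edgeR test, adjusted p = 3.22e-07). It kept its call with library totals. Traf3, an adaptor that holds back the alternative NF-kB pathway, was called higher by a small margin (0.13 ± 0.04, edgeR adjusted p = 0.0366), a call lost under 10 of 17 alternatives, among them those without lavage 1, 3, 4 or 5, lavages 1 and 2 alone (0.08, adjusted p = 0.506) and lavages 3 to 6 alone (0.16, adjusted p = 0.0521). Also outside the rule and chosen for their role after the values were seen, Tnfaip3 for the ubiquitin-editing enzyme A20 had 331 ± 51.7 and 320.2 ± 49.0 CPM (edgeR adjusted p = 0.48), and Adam17, the TNF sheddase gene, 88.3 ± 9.91 and 85.4 ± 6.69 CPM (0.701). Of family members with other symbols, Relt had 218 ± 19.8 and 211 ± 15.6 CPM (edgeR adjusted p = 0.544) and Rell1 38.4 ± 3.94 and 39.0 ± 4.76 CPM (0.932). Eda, Edar, Edaradd and Rell2 did not pass the filter.

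**Figure D5:**
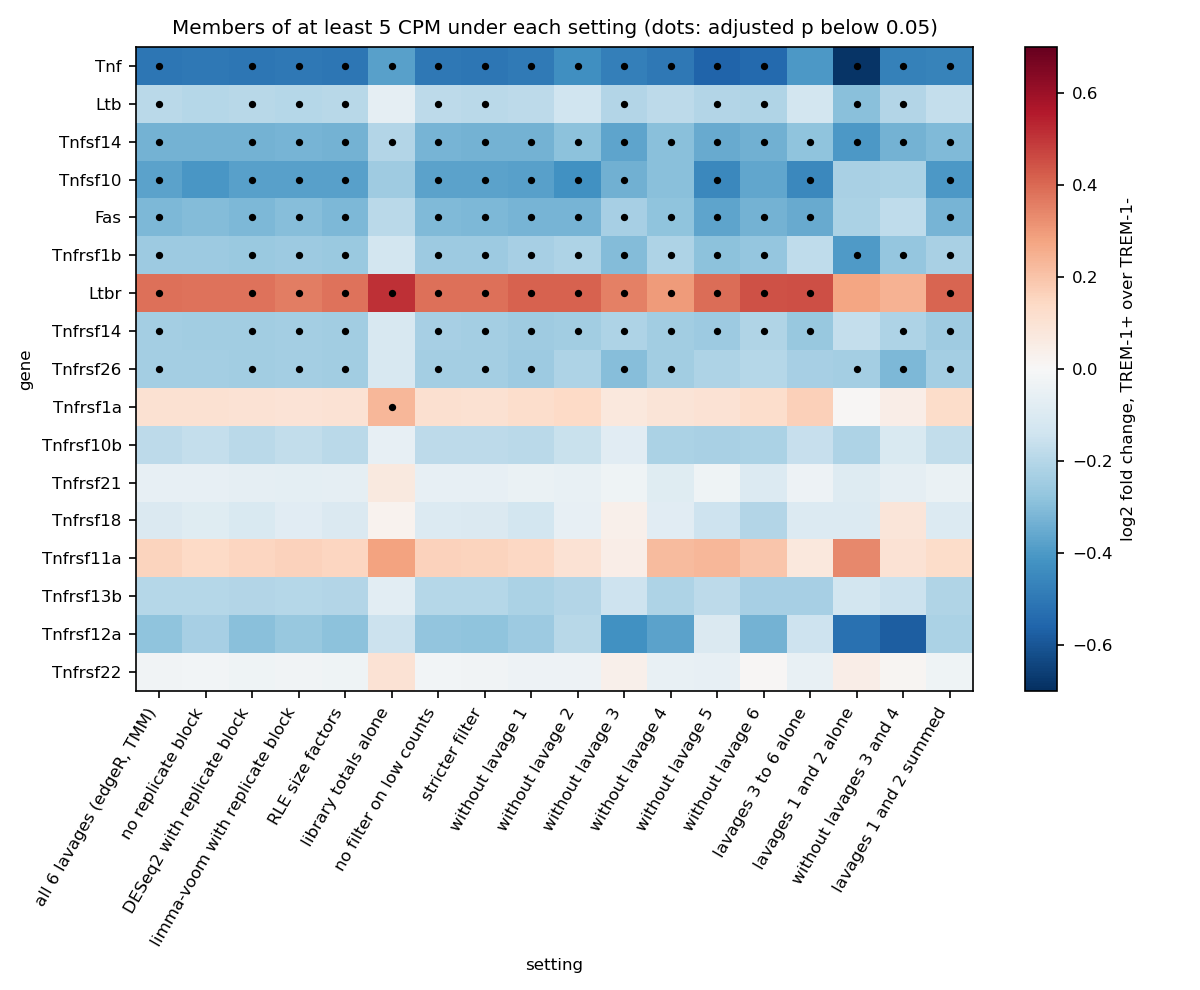
Log2 fold change (TREM-1+ over TREM-1-, colour) of the 17 members of at least 5 CPM under the fit to all 6 lavages and 17 alternatives, with dots where the adjusted p was below 0.05. The column without the lavage block holds 0 dots, that of library totals 4, and the 9 called members keep their direction in all columns shown.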

How the data were processed

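The deposited table holds an estimated count per gene for each of 12 libraries, as whole numbers; rounding changed nothing. Per the submitters' processing notes, which give no roles, the tools were edgeR 3.42.4, kallisto 0.45.0 and R 4.3.0 and the build was GRCm39. A deposited log2 CPM table was not used. Counts of all 39666 genes were filtered (filterByExpr, minimum count 10, minimum total 15) and tested with edgeR 4.0.16 (TMM factors, robust quasi-likelihood F test) in R 4.3.3, with the lavage as a block. DESeq2 1.42.0 and limma 3.58.1 were alternatives, and the scripts were tested on simulated data. The standard error comes from the F statistic, and paired differences are log2 CPM with a prior count of 1.

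Libraries are paired by lavage, as the design text states. The correlation of the partners' deviations from their group means was 0.493 (lavage 1), 0.502, 0.127, 0.368, 0.247 and 0.236 (lavage 6). The TREM-1+ library of lavage 3 correlated best with another lavage (5), the others with their own partner. Nothing states that pools held different animals, so p-values cover the spread of these pools, which may be technical. Over 6 pairs, the exact sign-flip permutation test (two-sided) has 64 patterns and cannot go below p = 0.0312, the value of each member with 6 of 6 pairs in 1 direction.

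Members and lists were chosen with earlier results of these data known. Named were all called members, other members of at least 5 CPM, and up to 6 called signalling genes of smallest p per direction. Members below 5 CPM are given by values or counts. The summed level of the B cell markers is not reported here.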

Additional observations from a re-analysis of the deposited data

Results flagged for a closer look

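Among 52 groups of 6 libraries (26 tested members in each fraction), 4 held a library whose gap to its nearest neighbour, as a share of the group's range of log2 CPM, exceeded Dixon's 95% critical value; chance flags about 1 in 20 such groups. Tnf was high in the TREM-1- library of lavage 3, at 17.1 CPM against 11.9 to 13.3 CPM in the others (gap 0.700 of the range). Tnfsf14 was low in the TREM-1+ library of lavage 4, at 70.3 against 90.5 to 98.7 CPM (0.747). Tnfsf10 was high in the TREM-1+ library of lavage 6, at 31.5 against 13.7 to 16.1 CPM (0.808). Tnfrsf26 was low in the TREM-1+ library of lavage 5, at 27.9 against 38.0 to 45.3 CPM (0.636).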

How the results depend on the processing

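The count of called members (9) became 0 without the lavage block (edgeR, 6 at an unadjusted p below 0.05), 4 with library totals alone, 5 in lavages 3 to 6 alone and 5 in lavages 1 and 2 alone; leaving out 1 lavage at a time gave 7 to 9. Of the signalling list (13), 0 were called without the block (7 unadjusted), 8 with library totals and 6 in lavages 3 to 6, and 10 to 12 with 1 lavage left out. Over all genes (1797), 83 were called without the block (1304 unadjusted) and 1168 in lavages 3 to 6. Leaving out 1 lavage at a time gave 1421 to 1588 calls. Of the 1797 calls 68.4% were lower, against 16.7% of the calls with library totals. The subsets hold fewer libraries; the other causes were not tested. Counts moved by 1.5 times or less with DESeq2, limma-voom, RLE factors, both filters and lavages 1 and 2 summed. Of 476 values of 28 named genes under 17 alternatives, 60 lost a call, 1 gained one and 0 called values changed sign; genes called in neither fit changed sign 12 times.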
